A study of Homo sapiens with 6 samples.

Results

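The 42 genes described here carry cells through G2 phase and mitosis: the cyclins and kinases that trigger entry, the spindle checkpoint, the machinery of anaphase, the kinetochore, and the motors and binding proteins of the spindle. They were taken from a list of gene symbols, chosen with earlier results of these data known. Measured values enter the rule through the filter and the choice of probe that follow. A gene counted as measured where a probe exceeded log2 6.7, a level just above the array background, in at least 3 of the 6 arrays. By that rule 42 of 42 genes were measured, with 62 kept probes of 66, among 11100 measured genes in all. For each gene the kept probe with the highest mean gave the values below, and the other kept probes served as a check.

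OCI-LY10, the cells used, is an established human line of diffuse large B-cell lymphoma, in its activated B cell-like form. They received pimasertib, which blocks the kinases MEK1 and MEK2, or DMSO alone, its solvent. Each treatment has 1 Illumina bead array at each of 4, 8 and 12 h, so there are 3 arrays of pimasertib-treated cells and 3 of DMSO-treated cells. All 6 come from the same line, and neither a dose nor separate cultures are given in the labels. The p-values below therefore measure how much these arrays scatter, and that scatter may be technical. A difference at a single time rests on 1 array each and has no test.

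Most genes of G2 and mitosis are transcribed in waves: silent in early G1, they are switched on late in the cycle and their messages are cleared as the cell divides. The MuvB core complex, as part of DREAM in resting cells and together with B-MYB and FOXM1 in cycling cells, binds a short promoter element called the cell cycle genes homology region, and NF-Y binds CCAAT boxes upstream of it. ERK signalling, which MEK inhibitors block, is known to promote passage from G1 into S phase in many cell types, and mitotic messages are low in cells that have left the cycle. In RNA from a whole culture, fewer cells in G2 or mitosis and less of a message per cell cannot be told apart.

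That promoter layout can be read in the genomic sequence of these genes, which the list did not use. RefSeq windows on GRCh38.p14, each from 250 bases before to 50 bases after a transcript start, were found for 35 of the 42 genes, in 44 windows. The homology region was searched as TTTGAA and as TTTAAA, and the NF-Y box as CCAAT, on both strands and with overlaps between motifs allowed. TTTGAA was present in 28 of the 44 windows (63.6%), against 15.2% of all 35116 RefSeq windows. TTTAAA stood in 14 windows (31.8%), against 12.2% of all windows. CCAAT stood in 35 windows (79.5%), against 34.6% of all windows, and 20 windows (45.5%) held it more than once where 10.8% of all windows did. A match is a description of the letters, and base composition was not matched between these windows and all windows. The sequences are the 150 bases before the start for 6 genes that hold a form of the homology region and recur in the results, and for BUB1, whose window holds neither form. Capitals mark the 3 motifs, read on either strand.
CCNB1 (chr5:69167000-69167149, plus strand): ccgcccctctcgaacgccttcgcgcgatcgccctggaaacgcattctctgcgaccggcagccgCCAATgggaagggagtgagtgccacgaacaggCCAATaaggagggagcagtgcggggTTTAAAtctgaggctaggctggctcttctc
CCNB2 (chr15:59104996-59105145, plus strand): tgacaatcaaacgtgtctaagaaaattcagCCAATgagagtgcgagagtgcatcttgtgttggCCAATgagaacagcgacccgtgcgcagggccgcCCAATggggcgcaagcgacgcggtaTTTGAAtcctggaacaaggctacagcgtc
CDC20 (chr1:43358831-43358980, plus strand): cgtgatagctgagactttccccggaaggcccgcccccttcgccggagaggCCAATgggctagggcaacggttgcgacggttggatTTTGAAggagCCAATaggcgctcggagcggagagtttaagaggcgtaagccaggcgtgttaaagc
PLK1 (chr16:23678739-23678888, plus strand): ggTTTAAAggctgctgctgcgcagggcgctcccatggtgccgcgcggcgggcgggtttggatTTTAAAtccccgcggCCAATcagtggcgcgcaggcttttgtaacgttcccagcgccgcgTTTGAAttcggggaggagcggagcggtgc
CKS1B (chr1:154974531-154974680, plus strand): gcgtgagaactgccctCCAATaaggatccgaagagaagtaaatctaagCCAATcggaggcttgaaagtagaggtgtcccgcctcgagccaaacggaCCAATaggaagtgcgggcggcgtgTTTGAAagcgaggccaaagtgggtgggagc
PTTG1 (chr5:160421705-160421854, plus strand): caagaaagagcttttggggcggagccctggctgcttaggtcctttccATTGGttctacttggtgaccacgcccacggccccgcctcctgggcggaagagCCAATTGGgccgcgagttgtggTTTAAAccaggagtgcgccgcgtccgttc
BUB1 (chr2:110678064-110678213, minus strand): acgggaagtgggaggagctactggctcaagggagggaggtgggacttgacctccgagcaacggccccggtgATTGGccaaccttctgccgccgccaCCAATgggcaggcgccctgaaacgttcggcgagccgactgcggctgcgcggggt

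In 5 of these genes a homology form lies almost at the same place in the window shown. Its first base is at position -30 from the start in CCNB1 and CKS1B, and at position -29 in CCNB2, PLK1 and PTTG1. PTTG1 has another window, not shown, where TTTAAA is at -84. PLK1 also holds TTTAAA at -148 and -88, and CCNB2 at -193, outside the stretch shown. In the stretches shown, CCNB2, the cyclin B2 gene, has CCAAT boxes at -120, -87 and -54, and CCNB1 has its boxes at -87 and -55. CDC20 carries TTTGAA at -65. Of the 35 genes with a window, 32 held a homology form and 3 (CCNA2, AURKB and BUB1) did not hold these letters. Counted by window, either form was present in 35 of 44 (79.5%), against 24.0% of all windows. In CDC25B, MAD2L1 and NUF2 the only match lies after the start, at positions 33, 25 and 17. The treatment differences of the 32 genes, on the log2 scale, had a median of -0.02 and ran from -0.54 to 0.87.

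The arrays were not equally alike. The DMSO array at 8 h stands apart: its mean correlation with the other arrays over all genes was 0.914, against 0.944 to 0.969 for each of the other 5. The arrays of pimasertib and DMSO at the same time correlated at 0.989 at 4 h, 0.924 at 8 h and 0.943 at 12 h. EGR1, an immediate target of ERK, was at 6.87, 6.74 and 6.62 in pimasertib cells at 4, 8 and 12 h, against 8.32, 8.77 and 8.85 in DMSO cells. Its difference was -1.90 ± 0.20 (SE), with an adjusted p of 0.273 in limma. DUSP6, chosen with EGR1 as a check of the inhibitor, went the other way. It was at 6.89, 6.84 and 7.16 in pimasertib cells, against 6.76, 6.82 and 6.94 in DMSO cells. The DUSP6 difference was 0.12 ± 0.16, with an adjusted p of 0.844 in limma, and its values lie close to the limit of 6.7. B-cell markers were present (5 of 7 listed genes measured, CD79A, CD79B and MS4A1 among them), and PAX5 lay at background on all 6 arrays. Of the T-cell genes, CD2 and CD5 exceeded 6.7 on 6 of 6 arrays, CD3D, CD3E and CD8A on 1 array each and CD3G on 0. The mean level of the T-cell list was 6.90 to 6.97 in pimasertib arrays and 6.87 to 6.97 in DMSO arrays.

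No mitotic gene passed the test of pimasertib against DMSO over the 3 times. The test was limma on log2 values with the time point as a factor, adjusted by Benjamini-Hochberg over all 11100 genes at 0.05. It called 0 of the 42 genes, where the share called among all genes was 0%. At an unadjusted p under 0.05 there were 5 mitotic genes (11.9%), against 7.53% of all genes. PTTG1 and BUB1 were the higher ones among them, where 3.96% of all genes were, and CDCA3, ESPL1 and CENPE the lower ones, where 3.57% of all genes were. Without the 12 h pair limma, with 1 residual degree of freedom, called 101 of the 11100 genes and 1 of the 42, CKS1B, at 1.10 with an adjusted p of 0.0211. The variance prior of that fit had infinite degrees of freedom, so all genes shared a common variance. The CKS1B differences at 4 h and 8 h were 0.42 and 1.77 by this probe, and 0.10 and -0.37 by its other kept probe. The median difference over the 42 genes was 0.013, and over all genes 0.018. Single genes ran from -0.54 for CDCA3 to 0.87 for PTTG1. Without the DMSO array at 8 h, in a fit without the time factor, the difference changed sign in 11 of the 42 genes and changed sign or moved by over 1.5 times in 34. Those values are given with each group of genes.

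Directions were mixed. The count of genes higher in pimasertib cells at all 3 times was 7 (CCNA2, BIRC5, BUB1, UBE2C, PTTG1, KIF20A and HMMR), or 16.7%, against 17.4% of all genes. The count lower at all 3 times was 8 (CDC25B, FOXM1, AURKB, MAD2L1, ESPL1, CDCA3, CENPE and NUF2), or 19%, against 15.7% of all genes. Both shares are near those of all genes. With fewer times the criterion is easier to meet: without the 8 h pair the counts were 14 higher and 11 lower (29.1% and 28.2% of all genes), without the 12 h pair 12 and 12 (29.7% and 25.9%), and without the 4 h pair 9 and 14 (26.6% and 26.6%). In 3 genes every pimasertib array lay above every DMSO array (BIRC5, UBE2C and PTTG1), where 8.4% of all genes did so. In 2 genes (MAD2L1 and CDCA3) every pimasertib array lay below, where 8.22% did so. Together 15 genes (35.7%) kept their direction, against 33.1% of all genes. Of these, 8 had a single kept probe, and in 0 of the other 7 did another kept probe of the gene keep that direction at all 3 times.

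**Figure D1:**
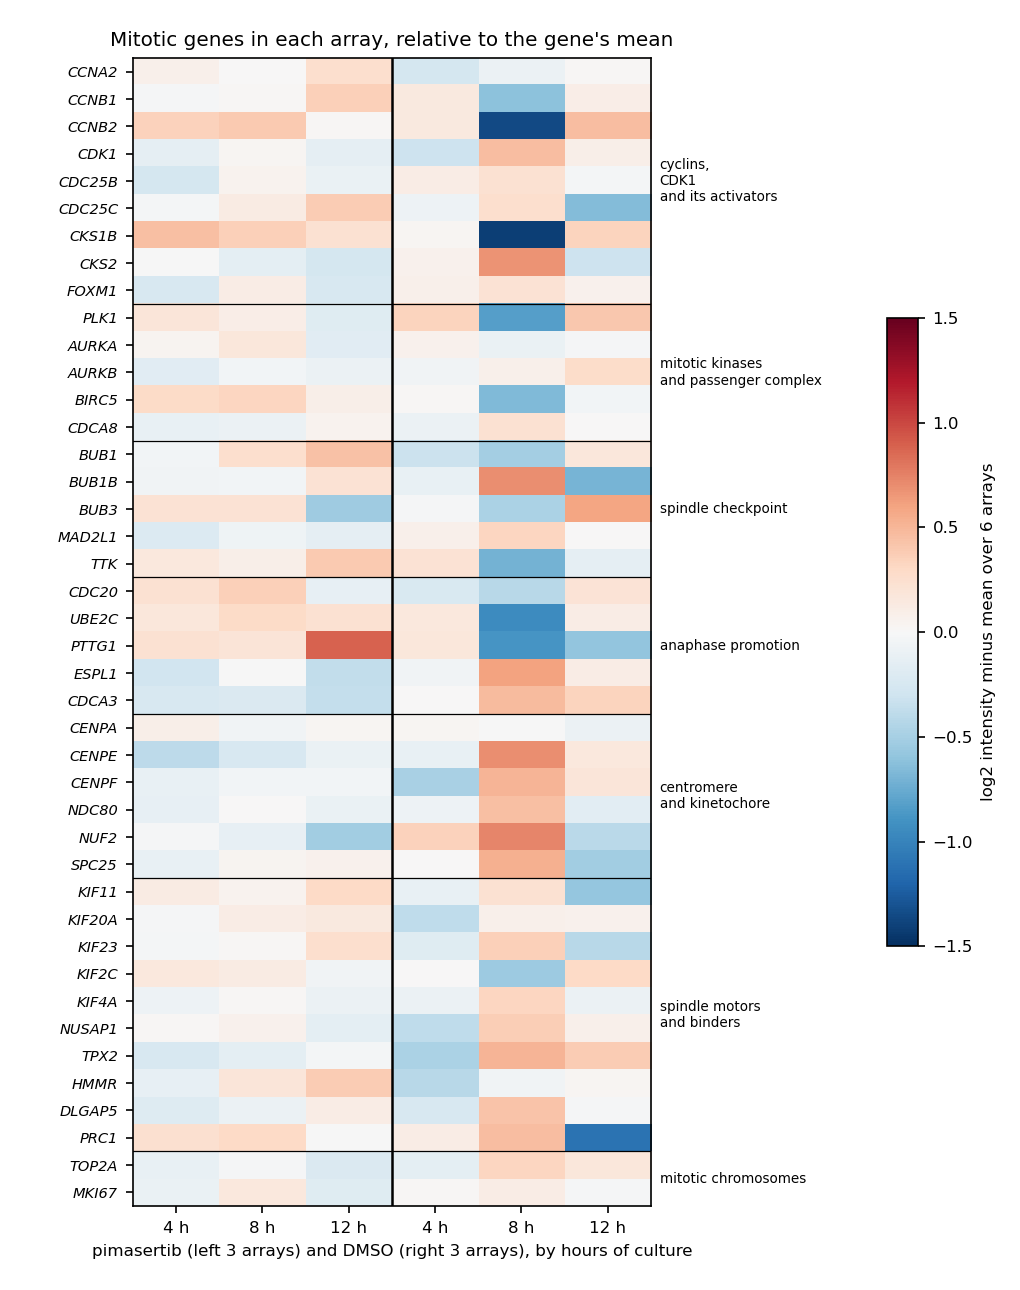
Log2 level of each of the 42 mitotic genes in the 6 arrays, as the deviation from the gene's own mean over the arrays (colour, log2), with genes in rows ordered by role and pimasertib columns left of DMSO columns. The deepest blue cells are CCNB2 and CKS1B at DMSO 8 h and PRC1 at DMSO 12 h, and the deepest red cell is PTTG1 at pimasertib 12 h.

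At 4 h the mitotic messages were nearly level between the treatments. Higher in pimasertib cells were 25 of the 42 genes (59.5%), where 52.3% of all genes were, and 0 were at least 2-fold apart, where 0.0721% of all genes were. Of the 42 genes 0 were at least 1.5-fold apart, where 1.38% of all genes were, and the differences ran from -0.37 to 0.46 on the log2 scale. The highest were CDC20, the activator of the anaphase-promoting complex, at 0.46, CKS1B, a small subunit bound by CDK1, at 0.42 and NUSAP1, a spindle-binding protein, at 0.40. The lowest were CDC25B, a phosphatase that activates CDK1, and NUF2, part of the NDC80 kinetochore complex, both at -0.37, and FOXM1 at -0.32. Both kept probes of NUSAP1 were higher in pimasertib cells at that time, with differences of 0.40 and 0.34, and both of FOXM1 were lower, with -0.32 and -0.30. The other probe of NUF2 was at 0.07 and that of CKS1B at 0.10.

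At 8 h the genes spread out, in both directions. The median size of the difference, without its sign, was 0.50 over the 42 genes and 0.35 over all genes, against 0.17 and 0.12 at 4 h. At least 1.5-fold apart were 19 genes (45.2%), where 25.9% of all genes were. At least 2-fold apart were 4 genes (9.52%), where 7.96% of all genes were, and each was higher in pimasertib cells (6.74% of all genes): CKS1B by 1.77, CCNB2 by 1.75, UBE2C by 1.22 and PTTG1 by 1.07. The count at least 2-fold lower was 0, where 1.23% of all genes were. Higher at all were 17 genes (40.5%), against 51.4% of all genes, and the median difference was -0.14, against 0.02 over all genes. That median was -0.033 after cyclic loess and -0.010 with the mean over the kept probes of each gene. These differences use the DMSO array at 8 h, which stands apart over all genes. From 4 h to 8 h the 42 genes changed by a median size of 0.10 in pimasertib cells and 0.50 in DMSO cells. Over all genes this was 0.08 and 0.35. At 8 h the other kept probes of CKS1B, UBE2C and PTTG1 were at -0.37, -0.25 and -0.25, and CCNB2 has a single kept probe.

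At 12 h other genes stood out. The 2-fold limit was passed by 4 genes (9.52%), where 4.09% of all genes passed it. PTTG1 at 1.48, PRC1 at 1.10 and CDC25C at 1.03 were higher in pimasertib cells (2.81% of all genes), and BUB3 at -1.13 was lower (1.28% of all genes). Higher by any amount were 20 genes (47.6%), against 48.6% of all genes. PTTG1 alone was past 2-fold at both 8 h and 12 h. CCNB2, which was 1.75 higher at 8 h, was at -0.46 at 12 h, and PLK1 was at 0.93 at 8 h and at -0.59 at 12 h. BUB1B had the opposite order, with -0.75 at 8 h and 0.91 at 12 h.

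**Figure D2:**
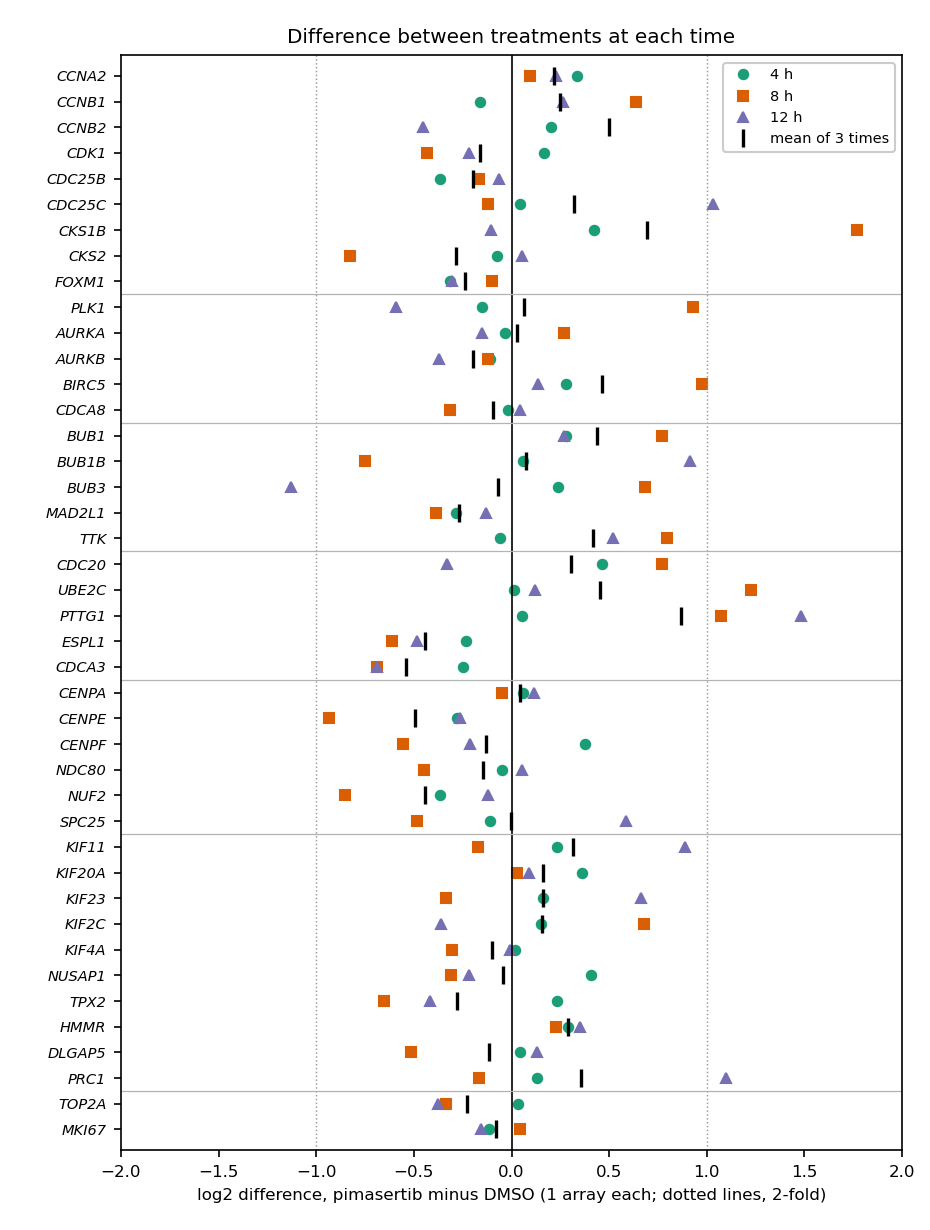
Log2 difference, pimasertib minus DMSO, of each mitotic gene at 4, 8 and 12 h, genes in rows by role, with a black bar for the mean of the 3 times and 1 array per treatment and time. The points lie between -0.37 and 0.46 at 4 h, between -0.93 and 1.77 at 8 h and between -1.13 and 1.48 at 12 h.

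Within the pimasertib arrays the mitotic genes were steady with time. The range over the 3 pimasertib arrays had a median of 0.26 over the 42 genes, close to the 0.24 over all genes. Over the 3 DMSO arrays the median range was 0.76, and 0.51 over all genes. The DMSO range was the wider one for 36 genes (85.7%), where this held for 79.4% of all genes. Between 4 h and 8 h, 0 of the 42 genes were 2-fold apart in pimasertib cells, where 0.018% of all genes were. In DMSO cells 6 genes (14.3%) were, where 7.22% of all genes were: CCNB2 was at -1.498 and CKS1B at -1.45, PLK1, UBE2C and PTTG1 were also lower at 8 h, and CENPF was 1.004 higher. Between 4 h and 12 h the counts were 0 in pimasertib cells (0.748% of all genes) and 1 in DMSO cells (2.86% of all genes), where PRC1 was at -1.22. The DMSO array at 8 h is also the array that stands apart over all genes, and its part in these values was not tested.

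By their brightest probes, more mitotic genes were higher than lower at 8 h against 4 h in either treatment. From 4 h to 8 h, 31 genes (73.8%) were higher in pimasertib cells, where 50.4% of all genes were, with a median change of 0.08 over the mitotic genes and 0.0009 over all genes. In DMSO cells 28 genes (66.7%) were higher, where 48.7% of all genes were, with medians of 0.32 and -0.02. Between the probes of the same gene, the sign of this change was shared in 13 of 20 pairs in pimasertib cells (65%, against 57.6% of the pairs of all genes) and in 9 of 20 in DMSO cells (45%, against 51.1%). In DMSO cells CENPE, DLGAP5, NUSAP1, MAD2L1 and FOXM1 were higher at 8 h by the brightest probe and lower by the other. By 12 h the counts were 23 in pimasertib cells (54.8%, against 47.2% of all genes) and 22 in DMSO cells (52.4%, against 50.5%). A trend with hours was tested in limma, for the difference between treatments and within each treatment, and 0 of the 42 genes passed in any of the 3 tests (0% of all genes in each). At an unadjusted p under 0.05 there were 0 mitotic genes in each, against 1.61% of all genes for the difference, 0.784% within pimasertib and 3.04% within DMSO. Without the DMSO array at 8 h the same tests called 5 of the 42 genes for the difference (CDC25C, BUB1B, BUB3, PTTG1 and PRC1; 883 of all 11100 genes), 2 within pimasertib (586 of all) and 8 within DMSO (1388 of all). The DMSO line then passes through its 2 remaining arrays, so that the error comes from the pimasertib arrays alone.

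**Figure D3:**
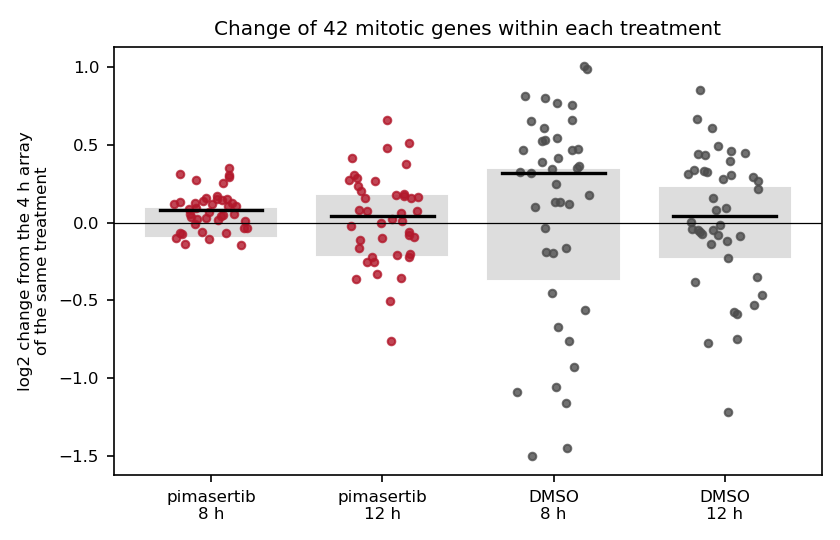
Log2 change of each mitotic gene from the 4 h array to the 8 h and 12 h arrays of the same treatment, pimasertib left and DMSO right, 1 point per gene, with black bars at the medians of the 42 genes and grey boxes over the middle quartiles of all genes. The DMSO points reach -1.498 and 1.004 at 8 h, and the pimasertib points stay between -0.14 and 0.35 at 8 h.

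With all 6 arrays, the 9 genes of cyclins, CDK1 and its activators had a median difference of 0.22. At all 3 times 1 was higher and 2 were lower (17.4% and 15.7% of all genes). CCNB1 encodes cyclin B1, which binds CDK1 to start mitosis. It was at 9.05, 9.08 and 9.42 in pimasertib cells at 4, 8 and 12 h, against 9.21, 8.44 and 9.16 in DMSO cells. The lowest of these 6 values is the DMSO array at 8 h, and the groups overlap. CCNB2 was at 9.96, 10.01 and 9.63 in pimasertib cells, against 9.76, 8.26 and 10.09 in DMSO cells. Here too the DMSO array at 8 h is far below the other 5. The mean difference was 0.50 ± 0.39 (SE), from differences of 0.20, 1.75 and -0.46 at the 3 times, and -0.06 without the DMSO array at 8 h. CDK1 itself, the kinase of mitotic entry, was at 10.17, 10.34 and 10.18 in pimasertib cells, against 10.00, 10.77 and 10.40 in DMSO cells. In CDK1 the DMSO array at 8 h was the highest of the 6. The difference over the times was -0.16 ± 0.19 for CDK1, 0.25 ± 0.20 for CCNB1 and 0.22 ± 0.17 for CCNA2, the cyclin A2 of S and G2 phase. CDK1 was at 0.03 and CCNB1 at 0.00017 without the DMSO array at 8 h. In that fit CCNA2 was at 0.23, CDC25B at -0.14 and FOXM1 at -0.19. CCNB1, CCNB2, CDK1 and CKS2 then lay between -0.06 and 0.03, so the median of 0.22 holds for all 6 arrays only.

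CKS1B and CKS2 encode small partners of CDK1 and are close relatives. By their brightest probes their differences at 8 h lay on opposite sides, at 1.77 and -0.82. By their other kept probes the signs were reversed, with -0.37 for CKS1B and 0.20 for CKS2. The values that follow are those of the brightest probes. CKS1B was at 11.001, 10.90 and 10.78 in pimasertib cells, against 10.58, 9.13 and 10.88 in DMSO cells. CKS2 was at 11.58, 11.44 and 11.33 in pimasertib cells, against 11.66, 12.26 and 11.27 in DMSO cells. The differences were 0.70 ± 0.34 (SE; adjusted p of 0.651 in limma) for CKS1B and -0.28 ± 0.22 for CKS2. With the DMSO array at 8 h left out, CKS1B was at 0.16 and CKS2 at -0.017. The phosphatases CDC25B and CDC25C, which remove inhibitory phosphates from CDK1, were at -0.20 ± 0.17 and 0.32 ± 0.25, and CDC25C was at 0.52 without that array. FOXM1 was lower in pimasertib cells at each time, by differences of -0.32, -0.10 and -0.31, and its mean of -0.24 ± 0.17 had an adjusted p of 0.707 in limma.

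The 5 genes of mitotic kinases and the passenger complex had a median of 0.03. PLK1, which drives centrosome maturation and much of mitotic progression, was at 7.99, 7.92 and 7.63 in pimasertib cells, against 8.14, 6.98 and 8.22 in DMSO cells. Its mean difference was 0.06 ± 0.29, and -0.34 without the DMSO array at 8 h. AURKA, the spindle pole kinase, was at 0.03 ± 0.17, and AURKB and CDCA8, the kinase and borealin of the chromosomal passenger complex, were at -0.20 ± 0.17 and -0.10 ± 0.17. BIRC5, the survivin subunit of the same complex, was at 8.52, 8.55 and 8.32 in pimasertib cells, against 8.25, 7.58 and 8.19 in DMSO cells. BIRC5 was at 0.25, AURKA at -0.012 and CDCA8 at -0.0055 without the DMSO array at 8 h. The BIRC5 groups do not overlap, but the lowest pimasertib value exceeds the highest DMSO value by little, and the difference of 0.46 ± 0.21 had an adjusted p of 0.647 in limma.

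In the spindle checkpoint, which holds anaphase until all chromosomes are attached, genes lay on both sides of zero. BUB1, a kinase of the unattached kinetochore, was at 8.39, 8.69 and 8.87 in pimasertib cells, against 8.11, 7.92 and 8.61 in DMSO cells. The pimasertib value was the higher one at each time, and the groups overlap. MAD2L1, which encodes the MAD2 protein that captures CDC20, was at 10.46, 10.60 and 10.54 in pimasertib cells, against 10.74, 10.99 and 10.67 in DMSO cells. All 3 pimasertib values lay below all 3 DMSO values, by a mean of -0.27 ± 0.17 with an adjusted p of 0.688 in limma. TTK, the MPS1 kinase, was at 0.42 ± 0.21 and BUB1B, which encodes BUBR1, at 0.07 ± 0.30. BUB3, the binding partner of both BUB proteins, was at 11.87, 11.86 and 11.11 in pimasertib cells, against 11.63, 11.18 and 12.24 in DMSO cells, a mean difference of -0.07. Without the DMSO array at 8 h the means were 0.29 for BUB1, -0.17 for MAD2L1, 0.17 for TTK, 0.44 for BUB1B and -0.32 for BUB3.

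The 5 genes around anaphase held the extremes of the whole set, on both sides. PTTG1 encodes securin, the inhibitor of separase that the anaphase-promoting complex destroys. It was at 10.71, 10.68 and 11.37 in pimasertib cells, against 10.66, 9.60 and 9.89 in DMSO cells. At 4 h the treatments were level, and at 8 h and 12 h the DMSO values were the lower ones. Its difference of 0.87 ± 0.28 (SE), or 1.83-fold, had an adjusted p of 0.647 in limma, the lowest of the 42 genes and shared by others. ESPL1, which encodes separase itself, was at 7.69, 7.96 and 7.59 in pimasertib cells, against 7.92, 8.57 and 8.08 in DMSO cells, a difference of -0.44 ± 0.17. Without the DMSO array at 8 h, PTTG1 was at 0.65, ESPL1 at -0.25 and CDC20 at 0.17. By these probes securin and separase, inhibitor and target, lay on opposite sides of zero at each time. The other kept probe of PTTG1 was at 0.06, -0.25 and 0.07 at 4, 8 and 12 h. At 8 h it was thus on the same side as ESPL1, which was at -0.61. CDCA3, an adaptor for the degradation of WEE1, was at 8.68, 8.71 and 8.57 in pimasertib cells, against 8.93, 9.40 and 9.26 in DMSO cells. Its 3 pimasertib values span 0.14, all lie below the DMSO values, and the difference was -0.54 ± 0.18. UBE2C, the ubiquitin-conjugating enzyme of the anaphase-promoting complex, was at 10.25, 10.38 and 10.32 in pimasertib cells, against 10.24, 9.15 and 10.20 in DMSO cells. Its differences were 0.01, 1.22 and 0.12, with a mean of 0.45 ± 0.26, and of 0.10 without the DMSO array at 8 h. CDC20, with all arrays, was at 0.30 ± 0.24.

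With all 6 arrays, kinetochore genes were the group with the lowest median apart from the pair of chromosome genes. This order was not examined without the DMSO array at 8 h. The 6 genes had a median of -0.14, with 0 higher and 2 lower at all 3 times (17.4% and 15.7% of all genes). CENPE, the motor that carries chromosomes to the equator, was at 8.35, 8.50 and 8.64 in pimasertib cells, against 8.63, 9.43 and 8.90 in DMSO cells. Its difference was -0.49 ± 0.20, and the pimasertib value was the lower one at each time, with its highest value just above the lowest DMSO value. NUF2 was at -0.44 ± 0.20, while NDC80 and SPC25, other subunits of the same complex, were at -0.15 ± 0.18 and -0.002 ± 0.23. CENPE was at -0.27, NUF2 at -0.19, NDC80 at 0.04 and SPC25 at 0.26 without the DMSO array at 8 h. CENPA, the histone variant that marks the centromere, was among the steadiest, with 0.04 ± 0.16. CENPF spanned 0.07 over the pimasertib arrays and 1.004 over the DMSO arrays. Its difference was -0.13 ± 0.22, and 0.09 without the DMSO array at 8 h, where CENPA was at 0.05. Without that array the 6 genes thus lay on both sides of zero, from -0.27 to 0.26.

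The 10 spindle motors and binders had a median of 0.16, with 2 higher and 0 lower at all 3 times (17.4% and 15.7% of all genes). KIF20A, a kinesin of cytokinesis, was at 0.16 ± 0.17 and HMMR, a spindle-associated protein, at 0.29 ± 0.16. PRC1, which bundles midzone microtubules, was at 10.14, 10.19 and 9.89 in pimasertib cells, against 10.01, 10.36 and 8.79 in DMSO cells. Its 12 h difference came with the lowest value of the gene, in the DMSO array of that time. The mean difference of PRC1 was 0.36 ± 0.26, and 0.68 without the DMSO array at 8 h. KIF11, the kinesin that separates spindle poles, was at 0.32 ± 0.23 and TPX2, an activator of AURKA, at -0.28 ± 0.21. The remaining genes of this role (KIF23, KIF2C, KIF4A, NUSAP1 and DLGAP5) lay between -0.11 and 0.16. Without the DMSO array at 8 h those 5 lay between -0.08 and 0.38, and KIF11 was at 0.51, KIF20A at 0.24 and TPX2 at -0.09. TOP2A, the topoisomerase that untangles sister chromatids, was at -0.23 ± 0.18, and MKI67, the common proliferation marker, at -0.08 ± 0.16. MKI67 was at 7.09, 7.34 and 7.01 in pimasertib cells, against 7.21, 7.30 and 7.17 in DMSO cells. Its groups overlap, and the mean difference is smaller than its SE. The same array left out put TOP2A at -0.12 and MKI67 at -0.04.

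Whether another probe of the same gene gave the same answer could be asked for 18 genes, in 20 pairs of the brightest with another kept probe. At 4 h the pair had opposite signs in 7 of 20 (35%), where 41.9% of the pairs of all genes did. At 8 h this was 14 of 20 (70%), against 49.2%, and at 12 h 13 of 20 (65%), against 45.4%. The probes were over 1 log2 unit apart in 0 pairs at 4 h, in 8 (40%) at 8 h and in 5 (25%) at 12 h, against 0.386%, 19.8% and 10.9% of the pairs of all genes. BUB3 and CDC25C give 2 pairs each, which share a probe.

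Several genes with wide differences were among those whose probes disagreed. The other kept probe of PTTG1 was at 0.06, -0.25 and 0.07 at 4, 8 and 12 h, where the brightest was at 0.05, 1.07 and 1.48. For CKS1B the other probe was at 0.10, -0.37 and -0.13, where the brightest was at 0.42, 1.77 and -0.10. MAD2L1 was below DMSO at each time by its brightest probe and at -0.06, 0.38 and 0.32 by the other. At 8 h CENPE was at -0.93 by its brightest probe and at 0.82 by the other, and UBE2C at 1.22 and -0.25. The other probes of UBE2C and KIF23 are dim, with means of 6.96 and 6.86. With the next kept probe of each gene, or the mean of its kept probes, the count of genes at least 2-fold apart was 1 at 8 h (CCNB2) and 1 at 12 h (PRC1), both genes with a single kept probe. The 3 probes of BUB3 at 12 h were at -1.13, -0.05 and 0.79, and the 3 of CDC25C at 1.03, -0.46 and -0.20. CENPA was level by both of its probes at 8 h, with -0.05 and -0.02.

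**Figure D4:**
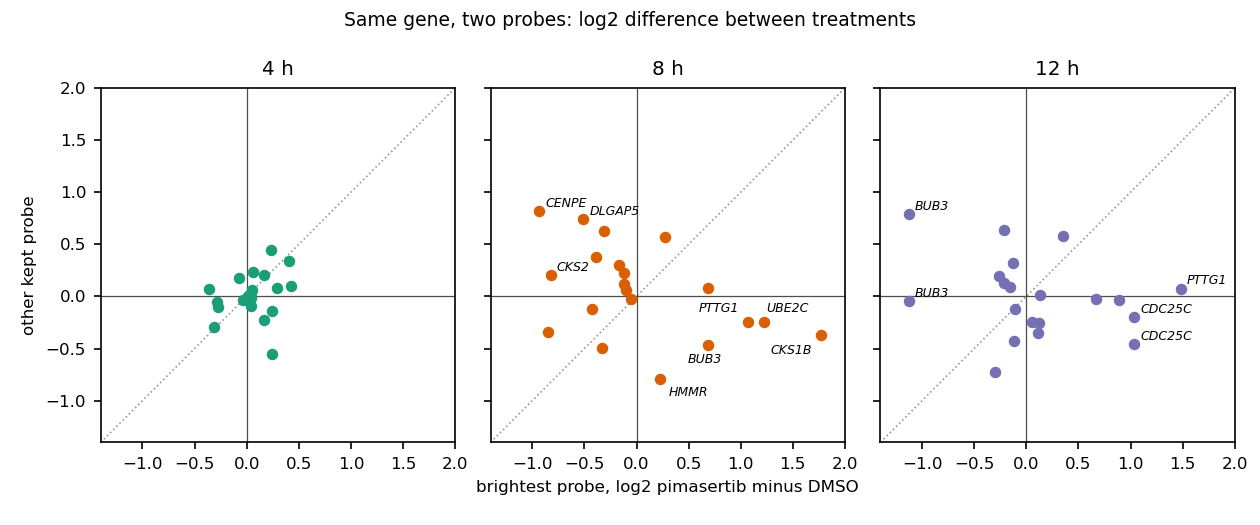
Log2 difference, pimasertib minus DMSO, by the brightest probe (x axis) and by another kept probe of the same gene (y axis), 20 pairs of 18 genes at 4, 8 and 12 h, with a dotted line where both are equal. At 8 h, 14 of 20 points lie in the quadrants of opposite sign, and genes over 1 log2 unit apart are named.

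The gap between a gene's probes also moved within a treatment. From 4 h to 8 h it shifted by a median of 0.13 in pimasertib cells and 0.55 in DMSO cells over the 20 pairs, against 0.10 and 0.50 over the pairs of all genes. From 4 h to 12 h the shift was 0.34 in pimasertib cells and 0.46 in DMSO cells, against 0.25 and 0.33. Both shifts were thus wider in DMSO cells, in mitotic genes as over the pairs of all genes. What the probes of a gene read differently was not tested.

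**Figure D5:**
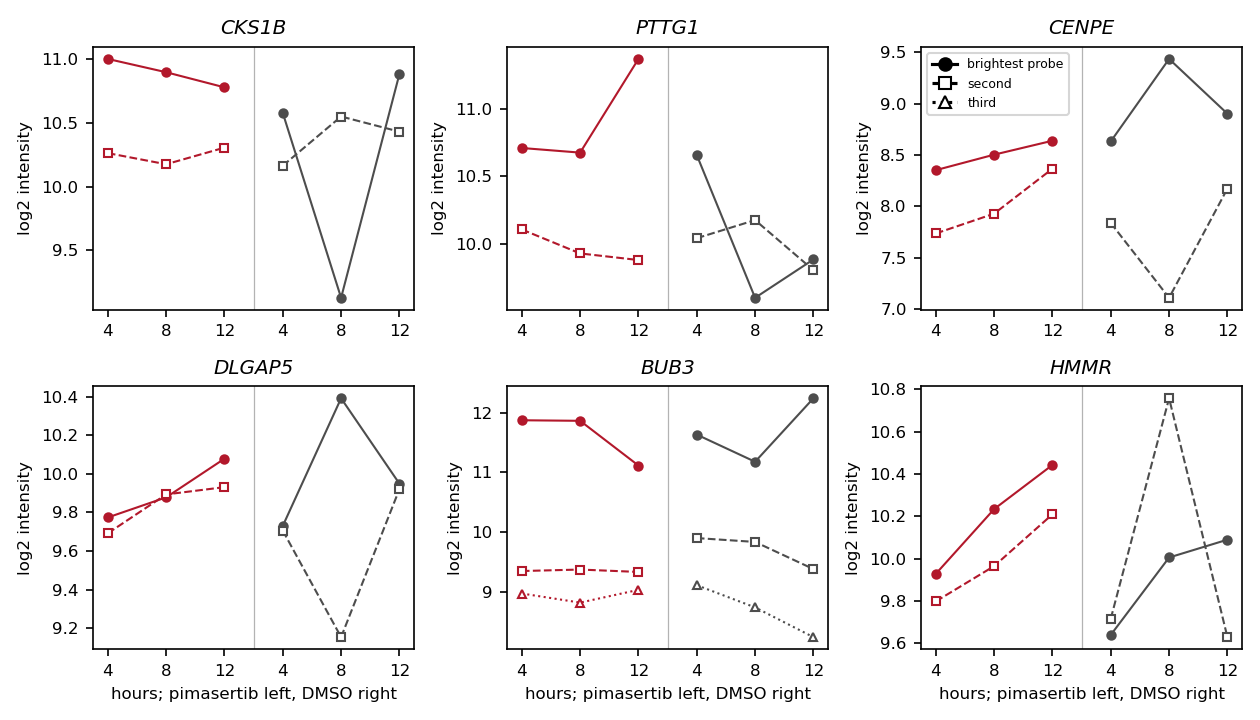
Log2 level of every kept probe of 6 mitotic genes, chosen after their values were seen, in each array, pimasertib left and DMSO right of the grey line, at 4, 8 and 12 h. For CKS1B, PTTG1, CENPE and DLGAP5 the brightest probe (filled) and the other (open) go opposite ways between 4 h and 8 h in DMSO cells.

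The wider mitotic machinery was read from 6 further lists of 141 genes, 129 of them measured, that share no gene with the 42. Here too limma called 0 genes, and 15 of the 129 had an unadjusted p under 0.05, where 7.53% of all genes did. Higher in pimasertib cells at all 3 times were 32 genes (24.8%), against 17.4% of all genes, and lower at all 3 times were 10 (7.75%), against 15.7% of all genes. The median difference was 0.07. Among the 14 inhibitors of CDK1 and regulators of mitotic entry, 7 were higher and 0 lower at all times (17.4% and 15.7% of all genes). They include PLK4, the kinase of centriole duplication, at 0.94 ± 0.40, BORA, a cofactor of AURKA in activating PLK1, at 0.76 ± 0.26, and ARPP19, an inhibitor of the phosphatase PP2A, at 0.75 ± 0.26.

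None of the other 5 lists held a gene called by limma. The counts of each list stand beside 17.4% of all genes higher and 15.7% lower at all 3 times. Throughout the 3 times, 9 of 34 other kinetochore genes lay above DMSO and 4 below it, with SKA2 at 0.86 ± 0.23, CENPL at 0.47 ± 0.21 and DSN1 at -0.49 ± 0.20. Of 14 measured subunits and regulators of the anaphase-promoting complex 5 were higher and 0 lower, with CDC16 at 0.44 ± 0.23, CDC14A at 0.43 ± 0.18 and ANAPC4 at 0.35 ± 0.20. Of 17 measured condensin and cohesin genes 5 were higher and 2 lower, with WAPL, which releases cohesin, at 0.61 ± 0.20, CDCA5, which encodes its antagonist sororin, at 0.59 ± 0.20 and NCAPH2 at -0.64 ± 0.22. Of 36 measured spindle and cytokinesis genes 5 lay above and 2 below DMSO throughout, with FAM83D at 1.03 ± 0.40, TUBA1B, an alpha-tubulin, at 0.78 ± 0.26 and CEP55, a protein of abscission, at 0.67 ± 0.22. Of 14 measured MuvB, DREAM and NF-Y genes 1 was higher and 2 lower, namely RBL2, the p130 pocket protein, at 0.46 ± 0.19, LIN37 at -0.24 ± 0.17 and LIN52 at -0.16 ± 0.17. The 3 genes named per list are those of smallest p with a constant direction.

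In several of these genes the DMSO array at 8 h held the lowest value. FAM83D was at 9.17, 9.04 and 9.36 in pimasertib cells, against 9.13, 6.69 and 8.66 in DMSO cells, and PLK4 at 9.20, 9.33 and 9.07 in pimasertib cells, against 8.96, 7.02 and 8.81 in DMSO cells. Without that array FAM83D was at 0.29, PLK4 at 0.32, ARPP19 at 0.33 and TUBA1B at 0.36. It also left CENPL at 0.20, CDC16 at 0.21, WAPL at 0.33, CDCA5 at 0.35, NCAPH2 at -0.32, LIN37 at -0.12 and LIN52 at -0.07. Other kept probes broke the constant direction in ARPP19, with -0.26 at 12 h, in CDC16, with -0.46 at 8 h, and in NCAPH2, with 0.31 at 4 h. SKA2 was at 8.74, 8.78 and 9.10 in pimasertib cells, against 8.43, 7.82 and 7.79 in DMSO cells, but its other kept probes had mean differences of -0.63 and 0.05. CCND2 and MYC, which act in G1, were at -0.15 ± 0.20 and -0.03 ± 0.17, and at -0.08 and 0.09 without the DMSO array at 8 h. Of 10 measured genes of an ERK output list, 7 were lower in pimasertib cells at all 3 times, where 15.7% of all genes were. In that list 1 gene, DUSP6, was higher at all 3 times, where 17.4% of all genes were. The median of the 10 was -0.28, against 0.01 over the 42 mitotic genes.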

How the data were processed

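Column-purified total RNA of OCI-LY10 cells passed an integrity check and was labelled as biotinylated cRNA, per the labels' protocols. The deposited values are the authors' log2 intensities of 47231 probes, from 6.20 to 13.91. Base 2 was inferred from that range. Sorted columns differ by at most 9e-04, so the deposited log2 values had been quantile-normalized; which software did this, and with what background correction, is not given in the sources used here. Not used here was a further table, without normalization, since the names of its 6 value columns match no label.

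The most frequent value was 6.49 and the background SD 0.0701. Probes above 6.7 in at least 3 of 6 arrays were kept (19894 probes), and each of 11100 genes was read from its brightest kept probe. Among all probes, 17110 had no symbol in the platform annotation, 8 had several and 30113 had 1. RefSeq identifiers matched 30074 of these, and 0 symbols changed. Groups and times came from the labels. limma 3.58.1 (R 4.3.3) fitted treatment with the time point as a factor, which pairs the arrays of the same time, and treatment by hours for trends. That leaves 2 residual degrees of freedom, with 4.93 added by the variance prior, and a treatment effect that changes with time counts as error. The fits were run on simulated data with independent normal noise, to see that planted effects were recovered. The simulated data held no array that stands apart, so they do not show how the fits behave with one. Error terms are limma's SE. For arrays, their number limits the precision.

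All 42 genes are named, and of each further list up to 3 genes, those of smallest p with the same direction at all 3 times. The genes, lists and tests were chosen with earlier results of these data known. The alternatives were 13 planned and 1 added after seeing the data.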

Additional observations from a re-analysis of the deposited data

How the results depend on the processing

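Each of the 42 mitotic genes was refitted under 13 other settings, and 22 kept the sign of their difference in all of them. The settings that changed only the filter, the variance prior or the handling of time left these differences as they were. They therefore say nothing about the sign, and the count of 22 rests on the remaining settings. The next kept probe is not among the 13. With limma the count of genes called, 0 in the values reported, was 2 with the threshold raised to 6 background SDs, 2 with a trended and robust variance prior, and 0 to 101 when a pair of arrays or the DMSO array at 8 h was left out. EGR1 was among the genes called with the raised threshold, and among those called with the trended and robust prior. Among the 42 genes the count stayed at 0 except without the 12 h pair, so the range was 0 to 1. There 1 gene, CKS1B, was called by limma. That fit has 1 residual degree of freedom and a variance prior of infinite degrees of freedom, so all genes share a common variance. Leaving out arrays gave 9 to 14 genes higher and 11 to 14 lower at all remaining times, in place of 7 and 8, in part because fewer times have to agree. With no replicate block (arrays of the same time not paired) limma called 0 genes, 757 had an unadjusted p under 0.05, and the lowest adjusted p of a mitotic gene in limma was 0.684. Across these settings that lowest adjusted p in limma ran from 0.0211 (without the 12 h pair) to 0.733. Trends with hours, at 0 calls, were called without the DMSO array at 8 h for the difference in 883 genes and 5 mitotic genes, within pimasertib in 586 and 2, and within DMSO in 1388 and 8. By construction the error then comes from the pimasertib arrays. The median difference at 8 h, -0.14, was -0.033 after cyclic loess and -0.010 with the mean over the kept probes of a gene. The 4 genes at least 2-fold apart at 8 h and the 4 at 12 h became 1 and 1 with that mean, and also 1 and 1 with the next kept probe, which was chosen after seeing the data. The next kept probe also gave 5 genes lower at all times in place of 8. For these changes the cause was not tested. The sign changed for 13 of the 42 genes with the next kept probe, for 11 without the 8 h pair, for 11 without the DMSO array at 8 h alone, for 9 with array weights and for 6 without the 12 h pair. With 1 array per treatment and time, a difference at 4 h has no test, so in single genes it could not be told from noise.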
